A study of Arabidopsis thaliana with 4 samples.

Results

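Cytochrome P450 enzymes are haem-thiolate monooxygenases. Most plant members are anchored in the membrane of the endoplasmic reticulum, where they take electrons from NADPH through P450 reductase, with cytochrome b5 as a further donor. Plants use them to make and break down hormones, sterols, phenylpropanoids, glucosinolates, terpenoids and defence compounds, and the names give the family as a number, the subfamily as a letter and the gene as a second number. The members described here are the probe sets whose only annotated gene has a symbol of that form, such as CYP71B6; cyclophilins, which share the letters CYP, were left out by the form of the name. The rule used no measured value and found 22 probe sets, 1 for each of 22 genes, among 22810 probe sets on the array, whose annotation names 13350 genes with a probe set of their own.

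The 22 genes are a narrow sample of the family. The RefSeq gene table lists 240 Arabidopsis genes with a P450 symbol, and 22 of them had a probe set of their own in the annotation used. That annotation lists no gene for 8730 probe sets, so a P450 gene without a named probe set may still be measured on the array. Of the 22, 18 belong to the CYP71B subfamily, and CYP51G2, CYP78A9, CYP79A2 and CYP84A4 stand for 1 family each. RefSeq gives 20 as protein coding and 2, CYP51G2 and CYP71B27, as transcribed pseudogenes. A further 2 probe sets carry a P450 symbol together with a second gene and were given no name. CYP718 and the pseudogene CYP71B30P have probe sets of their own, but their names do not have the form that the rule asks for.

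Leaf discs of Arabidopsis thaliana Col-0, wild type, were cut as the night ended from full-grown source leaves of rosette plants that were not flowering. They were kept in darkness for 1 h in 2 mM MES buffer at pH 6.5, without dithiothreitol (control) or with 5 mM dithiothreitol (DTT), a thiol that reduces disulfide bonds and crosses membranes. Plants had grown in days of 14 h at 20 °C and nights of 10 h at 16 °C. Each group had 2 arrays labelled as biological replicates, here control 1 and 2 and DTT 1 and 2, and the comparison asks how the thiol redox state alters transcript levels.

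The values are MAS5 signals, 1 linear intensity per probe set and array, which the authors scaled so that the trimmed mean was 100 on every array. The median over all probe sets was 32.8 on control 1, 29.6 on DTT 1, 25.9 on control 2 and 25.4 on DTT 2. The arrays separated by replicate number: over 18 probe sets of hybridization controls, transcripts added at fixed amounts, control 1 had 1.88 times the signal of control 2 in the median and DTT 1 had 1.69 times that of DTT 2. DTT against control came to 0.969 in replicate 1 and 1.06 in replicate 2. Nothing in the labels ties arrays of one number to a common preparation, so values are given within each number, and fits without and with replicate number as a block. Of 32 marker genes listed for leaf and other cell types, 4 had a probe set that named them alone, and 0 of the 8 mesophyll markers did, so the leaf label could not be checked against them. FMA, listed for guard cells, had signals between 23.8 and 31.6 on the 4 arrays, and PYK10, listed for root, between 9.8 and 13.7. SETH2 and AGL66, listed for pollen, had signals between 47.4 and 56.7 and between 2.8 and 15.7. These signals were not read as the presence of a cell type, and whether SETH2 is specific to pollen was not tested.

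In control discs, 6 of the 22 P450 probe sets had a signal above the filter level on both control arrays. All 6 were in CYP71B, the subfamily of 18 of the 22. The filter level, 16.9, is the 40th percentile of the mean log2 signal over all 22746 probe sets that are not array controls. Only probe sets whose mean over the 4 arrays reached it were tested. The signal of a probe set depends on its probes as well as on its transcript, so signals are set here against this level and not against one another. On control 1, 8 of the 22 were above it, against 65.1% of all probe sets, and on control 2 it was 7 of 22, against 58.6%. The share of all probe sets above it on both control arrays is not given here. In bulk tissue, fewer cells that express a gene and less RNA per cell cannot be told apart.

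The CYP71B genes, which make up most of the list, had control signals from 0.4 to 119.5 on control 1 and from 0.7 to 86.0 on control 2, with medians of 14.6 and 10.2. Of these 18, 6 were above the level on both control arrays, 1 on one of them and 11 on neither. CYP71B6 (AT2G24180), an enzyme that converts indole-3-acetonitrile on the way to indole carboxylic acids, had control signals of 119.5 and 86.0. CYP71B5 (AT3G53280), CYP71B23 (AT3G26210), CYP71B24 (AT3G26230), CYP71B28 (AT1G13090) and CYP71B34 (AT3G26300), for which no role is given here, were the other 5 above the level on both, with control signals between 33.0 and 66.7.

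The families with 1 member each were above the level on at most 1 control array. CYP78A9 (AT3G61880), of a subfamily that promotes growth of ovules, seeds and fruits, had 59.2 on control 1 and 13.9 on control 2. CYP84A4 (AT5G04330), a hydroxylase of arabidopyrone synthesis and a relative of ferulate 5-hydroxylase, had 53.2 and 14.4. CYP51G2 (AT2G17330), a pseudogene relative of the sterol 14-demethylase gene CYP51G1, had 15.5 and 8.8. CYP79A2 (AT5G05260), which makes phenylacetaldoxime from phenylalanine for benzylglucosinolate, had 1.6 and 0.4. All family numbers but one hold a single gene here, so no family was compared with another.

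**Figure D1:**
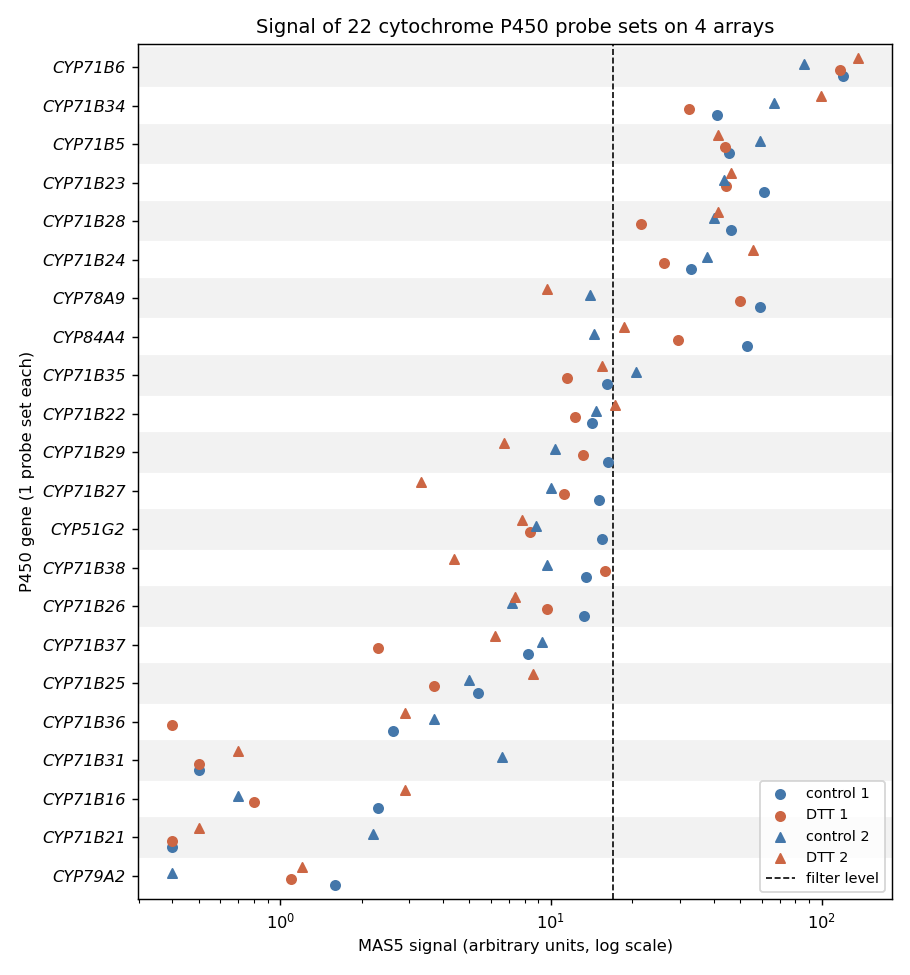
MAS5 signal (log axis, arbitrary units) of the 22 P450 probe sets on each of the 4 arrays, with genes in order of their control signal, circles for replicate 1, triangles for replicate 2, blue for control and orange for DTT. The dashed line is the filter level of 16.9; 6 genes lie to its right on both control arrays, and CYP78A9 and CYP84A4 do so on control 1 but not on control 2.

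Many of the CYP71B genes lie side by side. Between CYP71B16 and CYP71B37 on chromosome 3, the RefSeq table lists 18 CYP71B genes, 2 of them pseudogenes, in a stretch with 20 protein-coding genes, and 11 of the 18 are among the 22 measured here. In this run CYP71B23, CYP71B24 and CYP71B34 were above the level on both control arrays. CYP71B35, the direct neighbour of CYP71B34, had 16.1 and 20.6 on the control arrays, while the next in the row, CYP71B36 and CYP71B37, had 2.6 and 3.7, and 8.2 and 9.3. At the other end CYP71B16 and CYP71B21 had control signals between 0.4 and 2.3. Adjacent genes of the run therefore lay on both sides of the level. All 22 probe sets have identifiers ending in _at, the kind designed for 1 transcript, but binding of transcripts from close relatives was not tested.

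**Figure D2:**
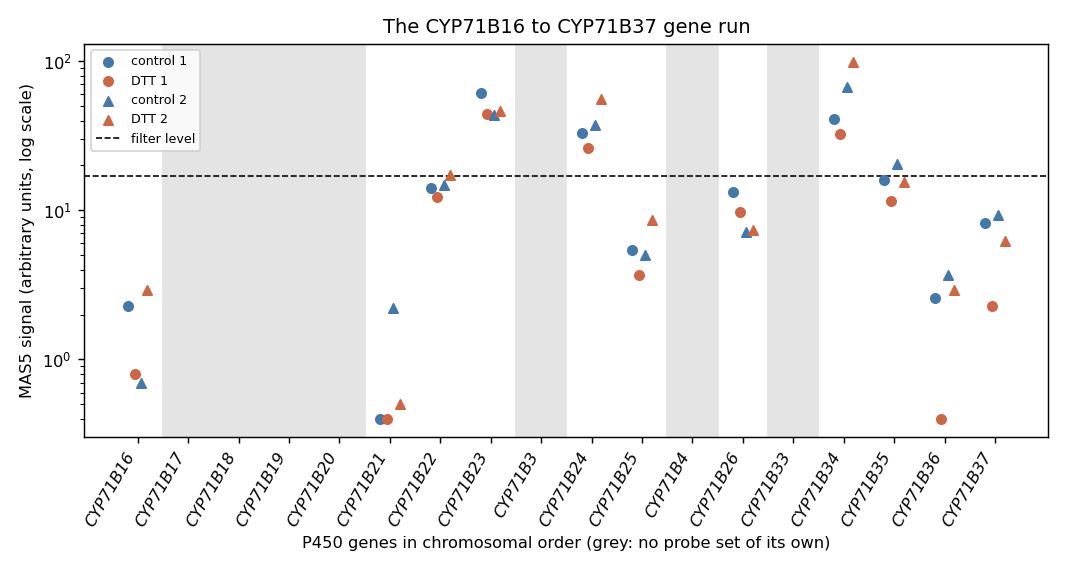
MAS5 signal (log axis, arbitrary units) of the P450 genes from CYP71B16 to CYP71B37, in the order in which they lie on the chromosome, on the 4 arrays. Grey columns mark genes without a probe set of their own in the annotation used. CYP71B23, CYP71B24 and CYP71B34 stand above the filter level of 16.9 on all 4 arrays, and their neighbours lie near or below it.

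A pair of shorter runs was also covered. On chromosome 1, CYP71B27, CYP71B28 and CYP71B29 lie in a run of 4 CYP71B genes, and CYP71B28 alone was above the level on the control arrays, with 46.4 and 40.1. CYP71B27, a pseudogene, had 15.1 and 10.0 there, and CYP71B29 had 16.3 and 10.4. On chromosome 3, CYP71B5 had 45.6 and 59.2, and CYP71B31, an enzyme of linalool oxidation in flowers, had 0.5 and 6.6.

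No P450 gene passed the test for a change with DTT. The filter left 8 of the 22 for testing, namely the 6 CYP71B genes above, CYP78A9 and CYP84A4. Limma without a block called 0 of these 8, against 0 of 13648 probe sets in the whole table (0%), where 95 had an unadjusted p under 0.05 and 0 of the 8 did. With the replicate block it called 0 of the 8, against 126 of 13648 (0.923%), and 0 of the 8 had an unadjusted p under 0.05, against 1092 of all. The block fit has 1 residual degree of freedom. The smallest p that an exact permutation test, two-sided, can give for 2 arrays against 2 is 0.333, so no such test was run for single genes.

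CYP71B28 had the largest mean change of the 8, with a signal of 46.4 on control 1, 21.6 on DTT 1, 40.1 on control 2 and 41.3 on DTT 2. DTT 1 alone was low, and the other arrays lay close together, so the groups overlapped. In replicate 1 the signal with DTT was 2.15-fold lower (log2 change -1.10), and in replicate 2 the log2 change was 0.04. The mean of -0.53 (SE 0.44) had a 95% interval from -1.62 to 0.56 without the block (limma adjusted p = 0.9999) and from -1.14 to 0.08 with it (limma adjusted p = 0.738).

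CYP71B6, the indole enzyme, had signals of 119.5, 116.6, 86.0 and 136.5 on control 1, DTT 1, control 2 and DTT 2. DTT 2 was the highest array and control 2 the lowest, and the replicate 1 arrays lay between them. The mean was 103 ± 23.7 in control and 127 ± 14.1 with DTT (SD, n = 2). The pair of replicate 1 differed by -0.04 on the log2 scale, and that of replicate 2 by 0.67, or 1.59-fold. The mean of 0.32 (SE 0.35) had an interval from -0.56 to 1.19 without the block (limma adjusted p = 0.9999) and from -0.19 to 0.82 with it (limma adjusted p = 0.906).

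CYP71B24 and CYP71B34, both of the chromosome 3 run, had like changes in each replicate. CYP71B24 had signals of 33.0, 26.1, 37.6 and 55.9 on control 1, DTT 1, control 2 and DTT 2. CYP71B34 had 41.1, 32.4, 66.7 and 99.1 in the same order. In each, DTT 1 was the lowest array and DTT 2 the highest, so the controls lay between the DTT arrays. The log2 change was -0.34 and 0.57 for CYP71B24 and -0.34 and 0.57 for CYP71B34 in replicates 1 and 2. The mean changes were 0.12 (SE 0.47) and 0.11 (SE 0.62), with limma adjusted p of 0.9999 for both in the fit that has no block, and 0.992 and 0.989 in the block fit. Without the block the interval for CYP71B34 ran from -1.42 to 1.65.

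CYP71B23 had signals of 61.5, 44.3, 43.7 and 46.4 on control 1, DTT 1, control 2 and DTT 2. Control 1 stood above the other 3 arrays, which lay within a few units of each other. The log2 changes, -0.47 in replicate 1 and 0.09 in replicate 2, gave a mean of -0.19 (SE 0.35; limma adjusted p = 0.9999, or 0.980 with the block).

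Among the 8 tested probe sets, CYP71B5 was the only one whose DTT arrays both lay on one side of both control arrays. Its signals were 45.6, 43.8, 59.2 and 41.3 on control 1, DTT 1, control 2 and DTT 2. Both DTT arrays were below both controls, but DTT 1 was below control 1 by less than 2 units. The mean was 52.4 ± 9.62 in control and 42.5 ± 1.77 with DTT (SD, n = 2). The log2 change was -0.06 and -0.52 in the replicates, with a mean of -0.29 (SE 0.34) and an interval from -1.13 to 0.55 (limma adjusted p = 0.9999, or 0.937 with the block). Of all tested probe sets, 9.81% had both DTT arrays below and 8.01% had both above, so 1 of 8 below and 0 of 8 above are near that background. The groups of CYP71B5 overlapped when arrays were set to one median or quantile-normalized.

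CYP78A9 and CYP84A4 differed more between the control arrays than with DTT. CYP78A9 had signals of 59.2 on control 1, 49.9 on DTT 1, 13.9 on control 2 and 9.7 on DTT 2. Both replicate 1 arrays were high and both replicate 2 arrays were below the filter level, with control 1 at 4.26 times control 2 and DTT 1 at 5.14 times DTT 2. Within each replicate DTT was lower, by 1.19-fold and 1.43-fold, and the log2 changes were -0.25 and -0.52. The mean of -0.38 had an SE of 1.01 and an interval from -2.92 to 2.15 without the block (limma adjusted p = 0.9999), and an SE of 0.32 and an interval from -1.03 to 0.26 with it (limma adjusted p = 0.917). Without control 1 or without DTT 2 the fitted change was 0.66 or 0.80, and without control 2 or DTT 1 it was -1.43 or -1.56, since leaving out 1 array unbalances replicate number.

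CYP84A4 had signals of 53.2, 29.5, 14.4 and 18.6 on control 1, DTT 1, control 2 and DTT 2. Replicate 1 was again the higher, at 3.69 times replicate 2 in control and 1.59 times with DTT. With DTT the signal was 1.80-fold lower in replicate 1 (log2 change -0.85) and 1.29-fold higher in replicate 2 (log2 change 0.37). Its mean was -0.24 (SE 0.70; limma adjusted p = 0.9999, or 0.980 with the block), and it was -1.18 without control 2 and 0.70 without control 1.

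**Figure D3:**
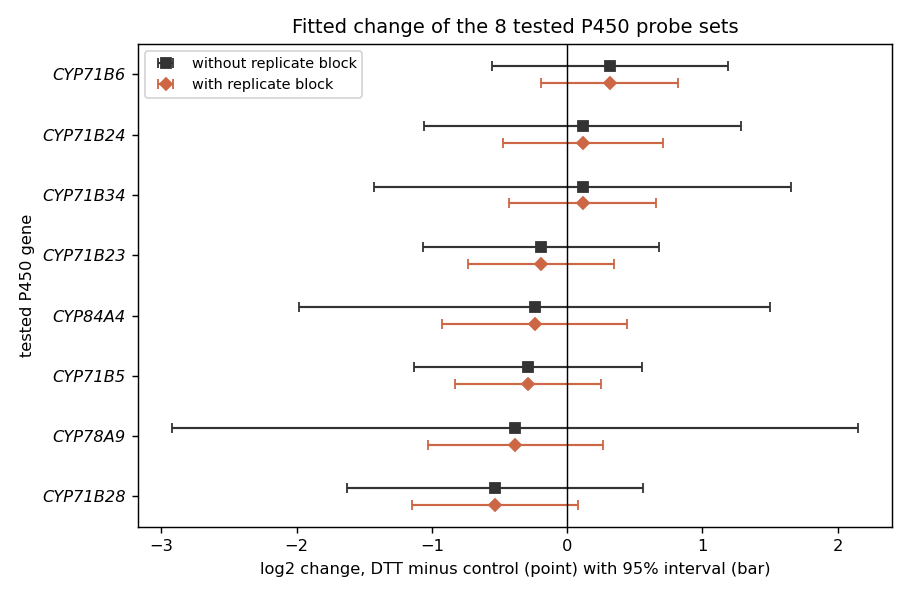
Fitted log2 change, DTT minus control (points), with 95% intervals (bars) for the 8 tested P450 probe sets, without the replicate block (black) and with it (orange). All 16 intervals include 0; the widest is that of CYP78A9 without the block, from -2.92 to 2.15.

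The intervals show what the fits to these arrays could and could not resolve. In the fit that has no block the 95% intervals of the 8 genes reached 0.84 to 2.53 on the log2 scale to either side of the estimate, and in the block fit 0.50 to 0.69. Both sets of widths rest on variances that eBayes draws toward the trend over all tested probe sets. The block fit, with 1 residual degree of freedom, also pairs arrays by replicate number, a pairing that the labels do not state. A p above the threshold does not show that a gene stayed the same. For CYP71B6, for instance, the interval without the block ran from 0.680 to 2.28 times the control signal.

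For 7 of the 8 tested P450 probe sets the difference between the control arrays was larger than the mean change with DTT, as it was for 74.6% of all tested probe sets. Across those 13648 probe sets the difference between replicates in control correlated at 0.746 with that in DTT, a description over probe sets that share the 4 arrays. CYP78A9 and CYP84A4 were higher in replicate 1 in both groups. CYP71B34 and CYP71B24 were lower in replicate 1 in both groups, and the other 4 tested genes changed order between control and DTT. What differed between the replicates was not tested.

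**Figure D4:**
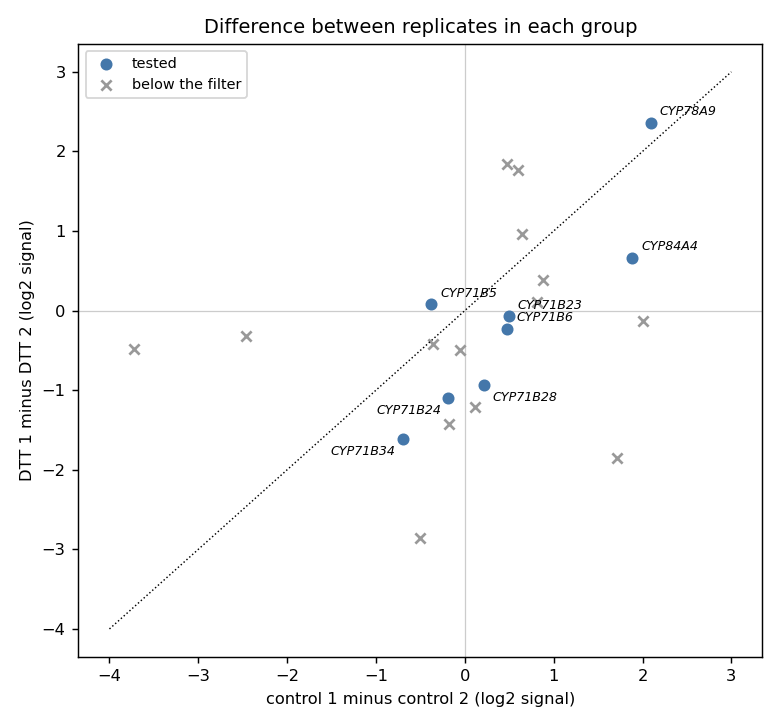
Log2 signal of replicate 1 minus replicate 2 in control (horizontal) and in DTT (vertical) for each P450 probe set, blue circles for the 8 tested and grey crosses for the 14 below the filter; the dotted line marks equal differences. CYP78A9 lies near that line and just above it, at a difference above 2 in both groups, and CYP71B5 also lies above it. The other tested genes, CYP84A4, CYP71B28, CYP71B34, CYP71B24, CYP71B6 and CYP71B23, lie below it.

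Within replicate 1 nearly all P450 signals were lower with DTT, and within replicate 2 they were split evenly. In replicate 1, 19 of the 22 were lower, 1 was higher and 2 were equal, against 58.0% of all probe sets lower. In replicate 2, 11 were lower and 11 higher, against 49.1% of all probe sets lower. Of the 8 tested, 8 were lower in replicate 1 (53.5% of all tested) and 2 in replicate 2 (49.0%). Below the filter, 11 of 14 were lower in replicate 1, where low signals in general fell more often (64.9% of all probe sets below the filter). In replicate 2 it was 9 of 14 (49.4%). The 22 had a median log2 change of -0.44 in replicate 1 and -0.07 in replicate 2, where all probe sets had -0.10 and 0. For the 8 tested it was -0.34 and 0.23, with -0.22 for the fitted change, against -0.03, 0.01 and -0.01 over all tested probe sets. For the 14 below the filter it was -0.47 and -0.39, against -0.36 and 0 over all probe sets below the filter.

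The count in replicate 1 depended in part on how the arrays were scaled. With one median per array, which moves the median change of all probe sets in replicate 1 from -0.10 to 0.05, 17 of the 22 were lower, against 46.0% of all, and with quantile normalization 16 were, against 48.9%. Of the 8 tested, 6 were lower in replicate 1 with one median per array (36.9% of all tested) and 7 with quantile normalization (49.3% of all tested). Below the filter it was 11 of 14 with one median per array (59.7% of all below the filter) and 9 of 14 with quantile normalization (48.4%). The count in replicate 2 was 11 under each scaling. With the authors' scaling, 8 of the 22 were lower with DTT in both replicates and 0 higher in both, where 28.9% of all probe sets were lower in both and 20.6% higher. With quantile normalization 7 were lower in both (23.7% of all) and 2 higher (26.5% of all), and with one median per array 7 were lower (22.7% of all) and 1 higher (29.6% of all).

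**Figure D5:**
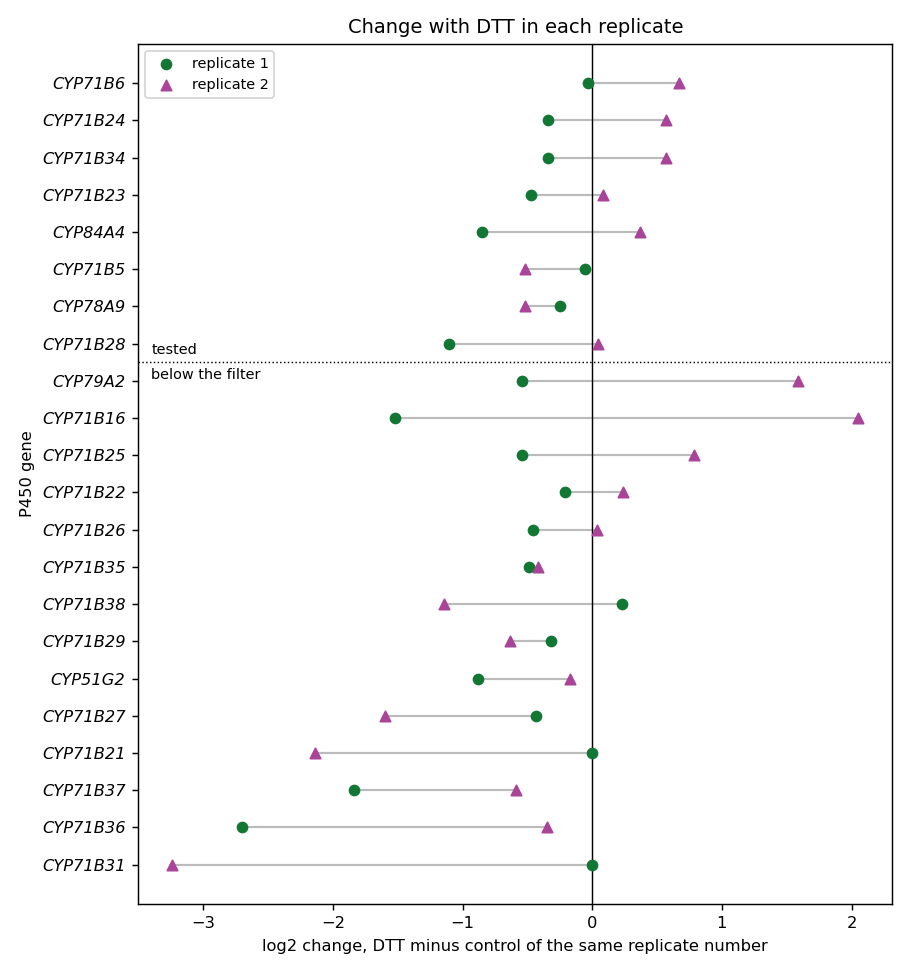
Log2 change, DTT minus the control of the same replicate number, for each P450 gene in replicate 1 (green circles) and replicate 2 (purple triangles), with the 8 tested genes above the dotted line and the 14 below the filter under it. Replicate 1 lies left of 0 for 19 genes and replicate 2 for 11, and the widest gaps are among the weak signals.

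The 14 P450 probe sets below the filter had signals between 0.4 and 20.6 over the 4 arrays. Only CYP71B35 and CYP71B22 reached the filter level at all, each on 1 array. CYP71B35 had 16.1, 11.5, 20.6 and 15.4 on control 1, DTT 1, control 2 and DTT 2. Both of its DTT arrays were below both controls, with log2 changes of -0.49 and -0.42, the closest match between replicates among the 22. CYP71B22, next to CYP71B23 in the run, had 14.2, 12.3, 14.7 and 17.3, with log2 changes of -0.21 and 0.23.

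Over all 22, the DTT arrays lay below both controls for 4, CYP71B5, CYP71B35, CYP71B37 and the pseudogene CYP51G2, against 12.4% of all 22746 probe sets, and above both for 0, against 7.68%. With quantile normalization 2 of the 22 lay below both controls (10.0% of all) and 0 above (10.8% of all). With one median per array 3 lay below (10.2% of all) and 1 above (10.7% of all). CYP71B37 had 8.2 and 9.3 in control against 2.3 and 6.2 with DTT. CYP51G2 had 15.5 and 8.8 in control against 8.4 and 7.8 with DTT. CYP71B35, CYP71B37 and CYP51G2 belong to the 14 below the filter, and of all probe sets below the filter 16.3% had both DTT arrays below both controls.

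Several of the other weak probe sets differed mainly in 1 replicate. CYP71B36 went from 2.6 to 0.4 in replicate 1 and from 3.7 to 2.9 in replicate 2. CYP71B31, the linalool enzyme, was at 0.5 on both replicate 1 arrays and went from 6.6 to 0.7 in replicate 2. CYP71B16, CYP71B21, CYP71B25, CYP71B26, CYP71B27, CYP71B29 and CYP71B38 had signals between 0.4 and 16.3, and their groups overlapped. CYP79A2, of the glucosinolate pathway, had 1.6, 1.1, 0.4 and 1.2 on control 1, DTT 1, control 2 and DTT 2, so the order of control and DTT turned between the replicates. Log2 changes of the 14 ran from -2.70 to 0.23 in replicate 1 and from -3.24 to 2.05 in replicate 2. When all probe sets were fitted without a filter, limma called 0 of the 22 without the replicate block, against 0 of all 22746 (0%), and 0 with it, against 3 of 22746 (0.0132%). An unadjusted p under 0.05 was found for 0 of the 22 in either fit, against 310 of all without the block and 1255 with it. In the block fit the limma adjusted p of the 14 lay between 0.912 and 0.99977.

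The P450 reductases ATR1 and ATR2, the cytochrome b5 proteins, their reductase and the membrane scaffold proteins had no probe set of their own in the annotation used. Of 11 genes listed as possible partners of P450 enzymes, 1 had a probe set of its own, AT3G02280, a flavodoxin-type diflavin reductase. Whether this enzyme gives electrons to P450 enzymes was not tested. Its signals were 22.3, 31.9, 25.4 and 17.5 on control 1, DTT 1, control 2 and DTT 2, with log2 changes of 0.52 and -0.54, and 0 of 1 passed the test (mean -0.01, SE 0.44, limma adjusted p = 0.9999, or 0.998 with the block). Transcripts of the P450 reductases ATR1 and ATR2 were not analysed here. CYP718 and CYP71B30P, the P450 names outside the rule, had signals between 0.8 and 2.1 on all 4 arrays.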

How the data were processed

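RNA was extracted with TRIzol and 10 µg was labelled with biotin, per the labels' protocols. The authors deposited 1 linear intensity per probe set and array, for which the submitters' processing notes name MAS5; its version and settings are not given in the labels. The deposited trimmed mean is 100 on each array. That scaling fixes the trimmed mean of the linear signals and not the log2 change, whose median over all probe sets was -0.10 in replicate 1 and 0 in replicate 2. Having 4 arrays limits the precision.

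Groups and replicate numbers came from the titles. The 64 array controls were left out, signals of 0 were set to 0.1, log2 was taken, and probe sets with a mean under the 40th percentile were dropped, leaving 13648. DTT was compared with control in limma 3.58.1 (R 4.3.3; lmFit, eBayes with a mean-variance trend), adjusted by Benjamini-Hochberg over all of them at a threshold of 0.05. On simulated data the only check was that the mean estimate came close to a known added change. How many such changes the fit recovered is not given here. Plots were made with matplotlib 3.10.9. P-values rest on the spread between these arrays, with the variance of each probe set drawn by eBayes toward the trend over all fitted probe sets. For a single gene they do not measure the spread of its own 4 signals alone.

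Names came from the platform annotation (13513 probe sets of 1 gene, 503 of several, 8730 with none listed). All 22 P450 genes matched RefSeq assembly TAIR10.1, used for names and neighbours only. The rule for named genes took the 10 with the highest control signal, tested genes with equal signs or the widest gap between replicates, and 1 or 2 for each role; the others are named to account for all members. The members and lists were chosen with earlier results of these data known. Alternatives were 2 scalings, pseudocounts of 16 and 64, 2 filters, 2 variance models, _at probe sets only, the replicate block alone and with each of these but the last, and leaving out each array.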

Additional observations from a re-analysis of the deposited data

How the results depend on the processing

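No P450 probe set was called under any of the 22 alternatives. The count over all probe sets was 0 without the block, and 0 to 3 when single arrays were left out (3 without DTT 1). With the replicate block it was 126. With the block and another choice it was 72 with quantile normalization, 3 with one median per array, 42 with log2(signal + 16), 137 with log2(signal + 64), 3 with no filter, 176 with the filter at the 60th percentile, 35 without the variance trend and 105 with robust eBayes; the cause was not tested. The median log2 change of the tested P450 probe sets was -0.22, between -0.34 (no filter, 22 probe sets) and -0.04 (60th percentile, 4 probe sets), and from -0.27 to 0.04 without single arrays. P450 probe sets whose groups did not overlap numbered 1, which was 0 with quantile normalization (9.67% of all tested above and 9.02% below) and 4 of 22 with no filter (7.68% of all above and 12.4% below). With one median per array it was CYP71B6, with DTT above (11.4% of all tested above and 6.95% below). The 6 above the filter level on both control arrays became 1 at the 60th percentile. Of 32 values of named genes without single arrays 8 turned sign, in CYP71B23, CYP71B24, CYP71B34, CYP78A9 and CYP84A4, and 0 of 72 with the replicate block and 0 of 68 under the others did. The counts per replicate under other scalings were added after seeing the data. Each group had 2 arrays, 14 of the 22 P450 probe sets were under the filter, and signal over background was not measured here.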
